A study of Mus musculus with 3 samples.

Results

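The neurexins, neuroligins and LRRTMs are cell-adhesion proteins that join the sides of a synapse, and 9 of their genes were measured here: Nrxn2, Nrxn3, Nlgn1, Nlgn2, Nlgn3, Lrrtm1, Lrrtm2, Lrrtm3 and Lrrtm4. They were chosen by gene symbol, with earlier results of these data known, and they are 9 of 18121 protein-coding genes with a coding transcript in the deposited table, which names 27494 genes in all. RNA came from dissociated cortical neurons of wild-type Swiss-Webster mice, an outbred stock, taken at embryonic day 16 and grown on coated plates in neurobasal medium with B27 supplement. The 3 libraries form 1 group, labelled as control. The protocol text also describes etoposide, a topoisomerase poison, in DMSO, but the labels of these libraries name no treatment. Whether these control cells received DMSO alone is not known from the labels. How many embryos were pooled and how long the cells were cultured is not stated in the labels. Whether each library had its own culture is not stated either, so every p-value below measures only the spread between libraries, which may be technical.

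Neurexins sit mainly in the presynaptic membrane, and each neurexin gene makes a long alpha form and a shorter beta form from separate promoters. Neuroligins and LRRTMs sit in the postsynaptic membrane and bind neurexins across the cleft. A short alternatively spliced segment of neurexins, known as splice site 4, changes which partners bind. Lrrtm1 and Lrrtm2 bind forms that lack it, and cerebellins bind forms that carry it. In cortex, Nlgn1 is best known at excitatory synapses, Nlgn2 at inhibitory synapses, Nlgn3 at both, and the LRRTMs at excitatory synapses.

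The values are TPM, a read count per transcript scaled by its length and by the library total, so levels of different genes can be set side by side. Each row of the table is 1 transcript model, and the value of a gene is that of its longest protein-coding transcript. Reads could be recovered from the values: for a transcript 2 kb long, 1 TPM was worth 102.5, 86.5 and 91.4 reads in libraries 1, 2 and 3. With the fullest row taken for each gene, the libraries held 35.3, 31.2 and 30.7 M reads, in which overlapping genes may be counted more than once. Library pairs correlated at 0.991 to 0.994 over genes, and no row above 0 was identical between libraries. Marker genes of neurons were all present, with a summed level of 1715 to 1932 TPM, led by Stmn2 at 687.2 ± 55.6 TPM, and the lowest neuronal marker was Rbfox3 at 22.6 ± 0.0276 TPM. Astrocyte markers were also present, 6 of 6, at 388 to 464 TPM in sum, from Slc1a3 at 184.4 ± 19.1 TPM down to Aldh1l1 at 10.8 ± 1.08 TPM. The oligodendrocyte lineage summed to 47.5 to 79.2 TPM, led by Olig1 at 34.4 TPM with Mog at 0.0286 TPM, and dividing-cell markers to 6.85 to 8.96 TPM, from Top2a at 4.13 TPM to Ccnb1 at 0.612 TPM. Microglia summed to 0.955 to 1.75 TPM, from Aif1 at 1.03 TPM to Cx3cr1 at 0.0381 TPM. Endothelial and mural cells summed to 1.39 to 1.94 TPM, led by Pdgfrb at 1.08 TPM, with Cldn5 listed at 0 in all libraries. In such bulk RNA, fewer cells of a type and less RNA per cell cannot be told apart, and the part of these other cells in the levels below was not tested.

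All 9 genes were present in these cultures, and their levels covered a 6.03-fold range from Nrxn2 at the top to Lrrtm4 at the bottom. All 9 had a mean of at least 1 TPM, as did 61.5% of all protein-coding genes. On the longest coding rows, a mean of at least 10 TPM was reached by 6 of the 9 and by 26.4% of all protein-coding genes. The 6 were Nrxn2, Nlgn2, Lrrtm1, Nrxn3, Lrrtm2 and Nlgn3, of which Nlgn3 was at 9.23 TPM in library 3. On their highest rows Nlgn1, Lrrtm3 and Lrrtm4 reached it too, at 19.0, 14.3 and 13.2 TPM. The highest row of Lrrtm3 has 469 bases and no coding sequence. The count thus depends on the row, and the share of 26.4% is for longest coding rows only. The median of log2(mean TPM + 1) was 3.89 over the 9 genes, with an SD of 0.21 between libraries. Over all protein-coding genes it was 1.94, and over the 11150 with at least 1 TPM it was 3.18. In each family 1 gene stood above its relatives: Nrxn2, Nlgn2 and Lrrtm1.

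**Figure D1:**
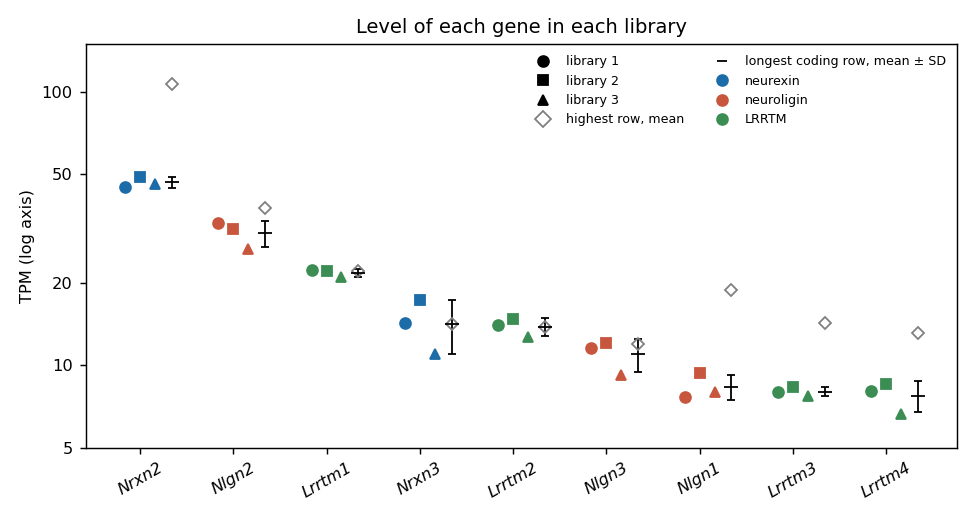
Level of each gene in TPM (log axis) in libraries 1, 2 and 3 (circle, square, triangle), with the mean ± SD (n = 3) of the longest coding row beside them and the mean of the gene's highest row as an open diamond. Nrxn2 (45.1 to 49.1 TPM) lay above all other genes in every library, and the highest row of Nrxn2, Nlgn1, Lrrtm3 and Lrrtm4 lay well above the longest. The highest rows of Nrxn2, Nlgn2 and Lrrtm3 have no coding sequence.

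Nrxn2, on the forward strand of chromosome 19 (chr19:6418731-6544169, mm10), was the highest of the 9. Its longest coding transcript, Nrxn2-205, has 23 exons and 6667 bases and codes for the alpha form. It stood at 45.1, 49.1 and 46.1 TPM in libraries 1, 2 and 3, or 46.7 ± 2.06 TPM (SD, n = 3), from 15411, 14138 and 14038 reads. The libraries lay close together, and the level was higher than that of 95.0% of protein-coding genes. Nrxn3, on the forward strand of chromosome 12 (chr12:88722876-90334935), covers 1612 kb, a span longer than that of 99.9% of protein-coding genes. Its longest coding transcript, Nrxn3-205, has 20 exons and 7922 bases. It stood at 14.2, 17.3 and 11.0 TPM, or 14.2 ± 3.17 TPM (SD, n = 3). Library 2 was highest and library 3 lowest, and the coefficient of variation of 22.4% was above that of 96.4% of the protein-coding genes with at least 1 TPM, whose median was 7.88%. Summed markers of GABAergic neurons had the same order of libraries, at 140.3, 173.3 and 105.9 TPM. Gad1, an enzyme that makes GABA, had it at 84.9, 107.5 and 61.5 TPM. Dlx1, the lowest of that list at 6.93 ± 0.654 TPM, did not. The order was not particular to Nrxn3 or to GABAergic markers. Summed neuronal markers had it at 1898, 1932 and 1715 TPM, as did Nlgn3, Lrrtm2, Lrrtm3 and Lrrtm4. Markers of glutamatergic neurons, from Slc17a7 at 89.98 ± 4.47 TPM to Slc17a6 at 6.28 ± 1.23 TPM, summed to 187, 184 and 185 TPM, and the part of the GABAergic cells in the Nrxn3 values was not tested.

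Nrxn2 was 3.30-fold higher than Nrxn3. The difference was 1.67 ± 0.27 on the scale of log2(TPM + 1), higher in 3 of 3 libraries, and their ranges did not overlap. With the highest row of each gene the difference was 2.84 ± 0.43, and with all rows summed 2.36 ± 0.26. The highest row of Nrxn2, Nrxn2-213, has 576 bases and no coding sequence. An exact two-sided sign-flip permutation test over the 3 libraries gave p = 0.25, which is the smallest p that 3 libraries allow. The same test was run for 13 pairs of genes in all, 10 within families and 3 with the gene that holds an LRRTM gene, and none could fall below this value, so no correction was made.

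The annotated transcripts of Nrxn3 differ by a 90-base segment near the end of the coding region, which is a multiple of 3 bases long and lies at the place of splice site 4 as background knowledge gives it. It is printed here because the partners of a neurexin depend on it. Capitals mark the segment and lower case the 15 neighbouring transcript bases on each side, as GENCODE release M21 gives them on mm10, forward strand, 5′ to 3′. The segment lies at chr12:90199147-90199236.
Nrxn3 segment: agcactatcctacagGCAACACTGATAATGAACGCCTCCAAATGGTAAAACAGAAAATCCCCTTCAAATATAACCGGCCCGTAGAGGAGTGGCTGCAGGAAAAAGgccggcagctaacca
Its GC content was 45.6%. Of the annotated Nrxn3 transcripts that run across it, 5 of 7 hold it. Because rows of a gene share reads, the share of molecules that carry it could not be read from the table.

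The transcript rows of Nrxn2 were far from even along the gene. A row made of its early coding exons, Nrxn2-209, stood at 30.0, 28.8 and 23.5 TPM. A row near its 3′ end, Nrxn2-213, of 576 bases, stood at 92.9, 107.5 and 119.9 TPM. The rows of each part differed widely: in the first part Nrxn2-214, Nrxn2-215 and Nrxn2-206 had means of 45.5, 38.0 and 36.5 TPM, and in the last part Nrxn2-203 had 30.6 TPM. Library 3 was lowest in the early row Nrxn2-209 and highest in the late row Nrxn2-213, and their ratio of late to early was 3.09, 3.73 and 5.10, or 3.98 ± 1.03 (SD, n = 3). On the log2 scale the mean ratio was 1.96, against medians of 0.34, 0.43 and 0.40 in libraries 1, 2 and 3 over 70 genes with such rows in the first and last part. Over those genes the 3 libraries differed little in this measure. For Nrxn3 the rows were Nrxn3-206 at 10.8, 10.6 and 7.94 TPM and Nrxn3-203 at 11.0, 13.1 and 8.40 TPM, with a ratio of 1.11 ± 0.118 (SD, n = 3). Over the 70 genes both rows had to lie inside the exons of the longest coding row, as those of Nrxn2 do. Neither Nrxn3 row does, and Nrxn3-206 starts upstream of Nrxn3-205, so the Nrxn3 ratio is not the same measure. Other early rows of Nrxn3 were lower, with means of 5.90 TPM for Nrxn3-207, 5.85 TPM for Nrxn3-204 and 6.53 TPM for Nrxn3-209, so for both genes the ratio depends on the rows chosen.

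Rows of the beta form start inside both genes. Nrxn2-202, which begins at 6497828, stood at 52.4, 59.8 and 61.3 TPM, or 57.8 ± 4.77 TPM (SD, n = 3). Its lowest library was above the highest library of the alpha row. A second row of this kind, Nrxn2-203, begins at 6497835 and ends further downstream, and stood at 28.8, 31.8 and 31.2 TPM, below the alpha row in every library. Nrxn3-202 stood at 13.5 ± 3.16 TPM (SD, n = 3) and overlapped the alpha row Nrxn3-205 in range. Nrxn3-203, the late row used above, begins at the same base as Nrxn3-202. It stood at 11.0, 13.1 and 8.40 TPM, below Nrxn3-205 in every library. A beta row shares most of its exons with the alpha rows, so RNA of the beta form and a higher density of reads toward the 3′ end cannot be told apart in these values. At the other end of the scale, Nrxn2-207, a retained-intron row in the first part of the gene, stood at 4.02 ± 0.141 TPM (SD, n = 3).

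**Figure D2:**
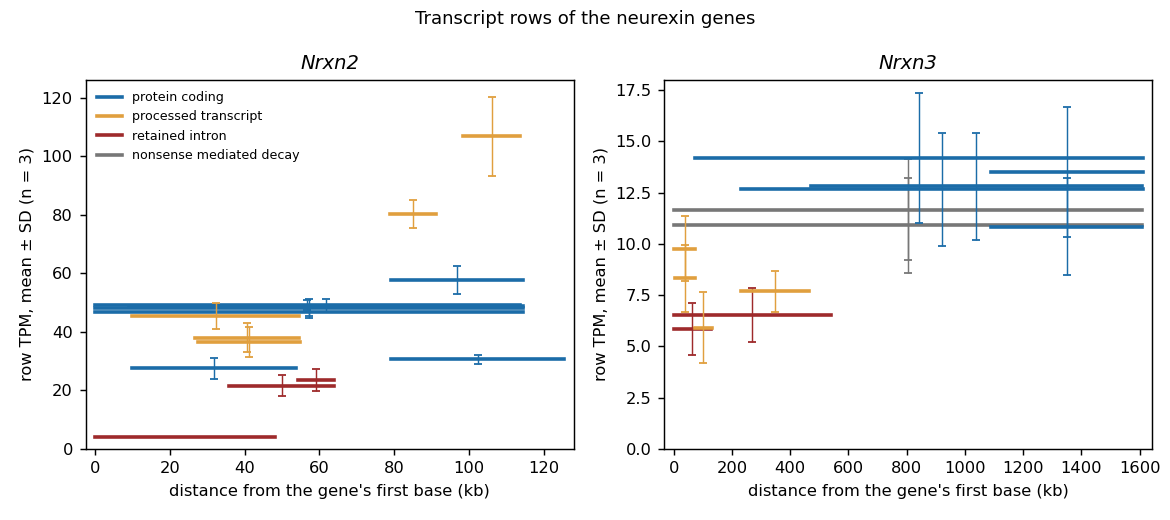
Each line is 1 transcript row of Nrxn2 (left) or Nrxn3 (right), drawn from its start to its end in kb from the gene's first base at its mean level in TPM ± SD (n = 3), coloured by transcript type. Rows in the last part of Nrxn2 reach 106.8 TPM (Nrxn2-213) against 27.5 TPM for the early row Nrxn2-209, but Nrxn2-203, which ends furthest downstream, lies at 30.6 TPM, and early rows reach 45.5 TPM (Nrxn2-214). Those of Nrxn3 lie between 5.85 and 14.2 TPM.

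Among the neuroligins, Nlgn2 was the highest. It lies on the reverse strand of chromosome 11 (chr11:69823122-69837784) in 14.7 kb, and its longest coding row stood at 33.2, 31.5 and 26.7 TPM, or 30.4 ± 3.38 TPM (SD, n = 3). Library 3 was lowest, and every library was above every library of the other neuroligins. Nlgn3, on the forward strand of the X chromosome (X:101299168-101325963), stood at 11.6, 12.1 and 9.23 TPM, or 11.0 ± 1.53 TPM (SD, n = 3). Library 3 was again lowest. The row shares 3823 bases, 44.8% of its length, with a gene on the same strand, Gm21986, listed at 9.22 TPM, and only 54.9% of its 50-base words were found in no other gene's transcripts, so its level is uncertain. Row Nlgn3-203, which ends before that stretch, stood at 11.9 ± 0.969 TPM (SD, n = 3).

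Nlgn1, on the reverse strand of chromosome 3 (chr3:25426215-26332460), covers 906 kb. Its longest row, Nlgn1-205, of 11807 bases, stood at 7.70, 9.36 and 7.99 TPM, or 8.35 ± 0.890 TPM (SD, n = 3). Library 2 was the highest, and this level depended strongly on the transcript model. The shorter coding row Nlgn1-202, of 4272 bases, stood at 19.0 ± 2.03 TPM (SD, n = 3). The 7448 bases that Nlgn1-205 holds beyond Nlgn1-201 carried 835, 852 and 766 reads, 17.8% ± 0.0723 of the row's reads (SD, n = 3). That is 11.0 reads per 100 bases, against 86.3 in the bases the rows share, and the share hardly moved between libraries.

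Nlgn2 was 2.77-fold higher than Nlgn3, by 1.39 ± 0.07 in units of log2(TPM + 1), and was above it in 3 of 3 libraries. Nlgn1 was at 0.274 times the level of Nlgn2, a log2 difference of -1.75 ± 0.20, lower in each library, but -0.95 ± 0.25 on the highest rows and -0.84 ± 0.21 on summed rows. The highest row of Nlgn2 is a retained-intron row of 355 bases. Both pairs had ranges that did not overlap, and each gave p = 0.25 in the exact sign-flip test, the smallest possible. Nlgn1 was below Nlgn3 in 3 of 3 libraries (-0.35 ± 0.18), with overlapping ranges, but on the highest row of each gene the direction turned, to 0.62 ± 0.19. The order of these 2 genes thus depends on the row that stands for each.

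Neuroligin transcripts also differ by short segments in the coding region, of which those at the place known as splice site A are printed to show how alike they are, with capitals for the segment and lower case for 15 neighbouring transcript bases, 5′ to 3′ on the strand of the gene, from GENCODE M21 on mm10. That of Nlgn1 lies at chr3:25920178-25920237 (reverse strand), that of Nlgn3 at chrX:101307075-101307134 (forward strand) and that of Nlgn2 at chr11:69830563-69830613 (reverse strand).
Nlgn1 segment: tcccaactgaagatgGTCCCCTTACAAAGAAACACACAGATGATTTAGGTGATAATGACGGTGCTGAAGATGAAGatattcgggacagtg
Nlgn3 segment: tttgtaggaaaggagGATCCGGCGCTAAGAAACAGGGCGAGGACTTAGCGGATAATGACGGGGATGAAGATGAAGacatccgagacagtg
Nlgn2 segment: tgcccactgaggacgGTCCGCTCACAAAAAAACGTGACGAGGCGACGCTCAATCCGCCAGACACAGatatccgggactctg
The Nlgn1 and Nlgn3 segments, of 60 bases each, matched at 43 of 60 positions (71.7%), and the Nlgn2 segment has 51 bases. Nlgn3 has another 60-base segment upstream (chrX:101303072-101303131), held by 1 of 4 transcripts, which matched the Nlgn1 segment at only 16 of 60 positions (26.7%). Nlgn1 has a further 27-base segment at chr3:25439865-25439891, reverse strand, at the place known as splice site B, which affects the neurexin forms that Nlgn1 binds.
Nlgn1 27-base segment: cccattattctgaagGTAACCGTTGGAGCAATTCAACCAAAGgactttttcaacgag
Of the annotated transcripts across each site, 2 of 4 of Nlgn1 hold the 60-base segment, 2 of 4 the 27-base one, 3 of 4 of Nlgn3 and 2 of 3 of Nlgn2 hold theirs. The Nlgn1 rows with and without both segments, which differ by 87 bases, had the same reads in each library: 3823, 3927 and 3541. For Nlgn3, 2 rows that differ by 76 bases, including a 60-base exon, differed by 0, 1 and 1 reads. If reads that touch a flanking exon enter both rows, only reads wholly inside the segment can differ. Over all genes with such row pairs, 33 of 98 added exons of up to 60 bases (33.7%) added 0 reads. Use of the segments was not measurable this way.

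Among the LRRTMs, single-pass membrane proteins with leucine-rich repeats, Lrrtm1 was highest. It lies on the forward strand of chromosome 6 (chr6:77242689-77257791) and stood at 22.4, 22.1 and 21.04 TPM, or 21.9 ± 0.733 TPM (SD, n = 3), the lowest coefficient of variation of the 9 genes at 3.35%. Lrrtm2, on the reverse strand of chromosome 18 (35209011 to 35215024), stood at 14.1, 14.8 and 12.7 TPM, or 13.9 ± 1.04 TPM (SD, n = 3). It has 1 row in the table, so the choice of row cannot change it. Lrrtm3, on the reverse strand of chromosome 10 (chr10:63928472-64090277), stood at 7.99, 8.33 and 7.73 TPM, or 8.02 ± 0.300 TPM (SD, n = 3). Lrrtm4, known to bind the heparan sulfate of glypicans, lies on the forward strand of chromosome 6 (chr6:80018877-80810143). Its longest row, Lrrtm4-206, stood at 8.06, 8.55 and 6.63 TPM, or 7.75 ± 0.998 TPM (SD, n = 3).

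Lrrtm1 and Lrrtm2 each exceeded Lrrtm3 and Lrrtm4 in 3 of 3 libraries on the longest rows. Lrrtm1 was 1.58-fold above Lrrtm2 (0.62 ± 0.07 on the log2(TPM + 1) scale), 2.73-fold above Lrrtm3 (1.34 ± 0.04) and 2.82-fold above Lrrtm4 (1.39 ± 0.13). Lrrtm2 was 1.73-fold above Lrrtm3 (0.72 ± 0.06) and 1.79-fold above Lrrtm4 (0.77 ± 0.07). All of these pairs had p = 0.25 in the exact sign-flip test, the smallest possible. Lrrtm3 and Lrrtm4 differed by 0.05 ± 0.13, less than the spread between libraries, with Lrrtm3 higher in 1 of 3 libraries (exact p = 1). These sizes depended on the row. The highest row of Lrrtm3, Lrrtm3-203, has 469 bases and no coding sequence. On the highest rows Lrrtm2 was no longer above Lrrtm3 (-0.041 ± 0.22, exact p = 1) and barely above Lrrtm4 (0.070 ± 0.0044), and Lrrtm1 was above Lrrtm3 by 0.60 ± 0.17 and above Lrrtm4 by 0.71 ± 0.07. With rows summed, Lrrtm1 was above Lrrtm4 by 0.14 ± 0.09 and above Lrrtm2, which has 1 row, by 2.51 ± 0.06.

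The low level of Lrrtm4 rested on the transcript model. Lrrtm4-206 is the form with a coding length of 1557 bases that ends 6.86 kb after its start. The form with the longest coding sequence, Lrrtm4-208, has 1773 coding bases, runs over 791 kb, and stood at 11.5, 12.4 and 10.2 TPM, or 11.4 ± 1.10 TPM (SD, n = 3), above Lrrtm4-206 in every library. With that row, chosen after the values were seen, Lrrtm3 less Lrrtm4 was -0.45 ± 0.08 on the log2(TPM + 1) scale, against the direction on the longest rows, Lrrtm2 less Lrrtm4 was 0.27 ± 0.03 and Lrrtm1 less Lrrtm4 was 0.89 ± 0.09. On the opposite strand, the gene Gm4409 shares 34.8% of the bases of the Lrrtm4 row. It was listed at 0.0112 TPM, and 65.9% of the 50-base words of the Lrrtm4 row were found in no other gene's transcripts.

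In the order of all 9 genes, 4 neighbouring pairs had ranges that did not overlap. Nrxn2 was above Nlgn2 (0.61 ± 0.17 on the log2(TPM + 1) scale), Nlgn2 above Lrrtm1 (0.45 ± 0.11), Lrrtm1 above Nrxn3 (0.61 ± 0.27) and Lrrtm2 above Nlgn3 (0.32 ± 0.09), each in 3 of 3 libraries. The other 4 neighbours, Nrxn3 and Lrrtm2 (0.01 ± 0.21), Nlgn3 and Nlgn1 (0.35 ± 0.18), Nlgn1 and Lrrtm3 (0.05 ± 0.10) and Lrrtm3 and Lrrtm4 (0.05 ± 0.13), overlapped in range. Library 3 was lowest for 7 of the 9 genes and library 2 highest for 7. Of the protein-coding genes with at least 1 TPM, 40.8% were lowest in library 3 and 40.3% highest in library 2. Summed neuronal markers were also lowest there and highest in library 2, at 1898, 1932 and 1715 TPM, and astrocyte markers were highest in library 3, at 388, 408 and 464 TPM. Their part in the order of the libraries was not tested.

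Lrrtm1, Lrrtm2 and Lrrtm3 each lay inside an intron of an alpha-catenin gene, on the opposite strand. Alpha-catenins tie cadherins to the actin skeleton. The pairs did not have a common relation. Lrrtm3 lies in intron 7 of Ctnna3, which stood at 0.132, 0.182 and 0.196 TPM from 25, 29 and 33 reads, against 1596, 1403 and 1376 reads for Lrrtm3. By the ratio of mean TPM Lrrtm3 was 47.1-fold higher, with ranges far apart. On the log2(TPM + 1) scale, which understates the change of so low a gene, the difference was 2.95 ± 0.07, and with a pseudocount of 0.1 it was 4.92 ± 0.20. Lrrtm1 lies in intron 8 of Ctnna2, which stood at 38.9, 42.2 and 40.5 TPM. Here the host was the higher gene in 3 of 3 libraries, with Lrrtm1 at 0.540 times its level (-0.86 ± 0.08). Lrrtm2 lies in intron 7 of Ctnna1, at 10.1, 13.0 and 13.5 TPM. Lrrtm2 was higher in 2 of 3 libraries by 0.18 ± 0.26, less than the spread between libraries (exact p = 0.5), while the other 2 pairs had p = 0.25, the smallest possible. The kit marks the strand, but the labels do not say whether the counting used it.

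**Figure D3:**
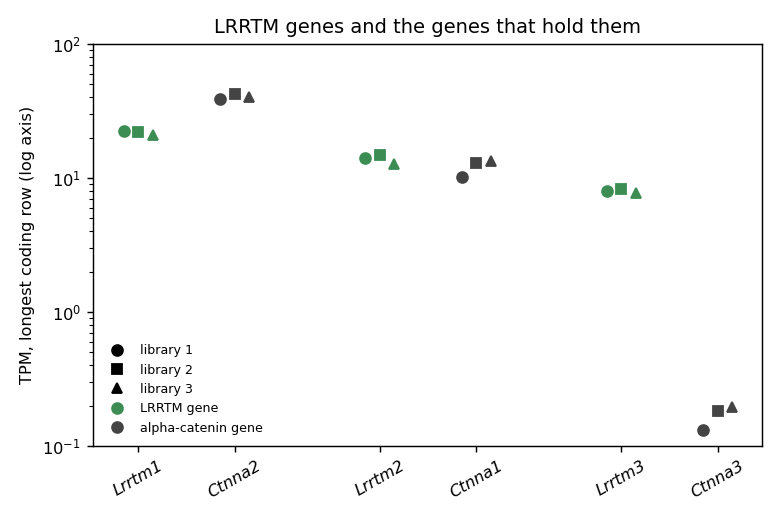
Level in TPM (log axis) of Lrrtm1, Lrrtm2 and Lrrtm3 (green) and of the alpha-catenin gene whose intron holds each (dark) in libraries 1, 2 and 3. Ctnna2 lies above Lrrtm1 in every library, Ctnna1 and Lrrtm2 overlap, and Ctnna3 lies between 0.132 and 0.196 TPM, far below Lrrtm3.

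The 9 genes range in genomic span from 6.01 kb for Lrrtm2 to 1612 kb for Nrxn3, and 5 of them exceed 100 kb: Nrxn2, Nrxn3, Nlgn1, Lrrtm3 and Lrrtm4. The median span of protein-coding genes is 21.2 kb. The 3 that exceed 500 kb, Nrxn3, Nlgn1 and Lrrtm4, stood at 14.2, 8.35 and 7.75 TPM. Of 214 protein-coding genes over 500 kb, 80.8% had at least 1 TPM, and their median was 5.50 TPM, so the 3 genes lay above that median. Over the 9 genes the Spearman correlation of level and span was -0.42 (n = 9, all from the same 3 libraries). Over all 18121 protein-coding genes it was 0.19, and over the 11150 with at least 1 TPM it was -0.03. The value over the 9 genes turned to 0.27 when the rows of each gene were summed and was -0.12 when the span of the longest transcript was used, in which Lrrtm4 covers 6.86 kb.

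**Figure D4:**
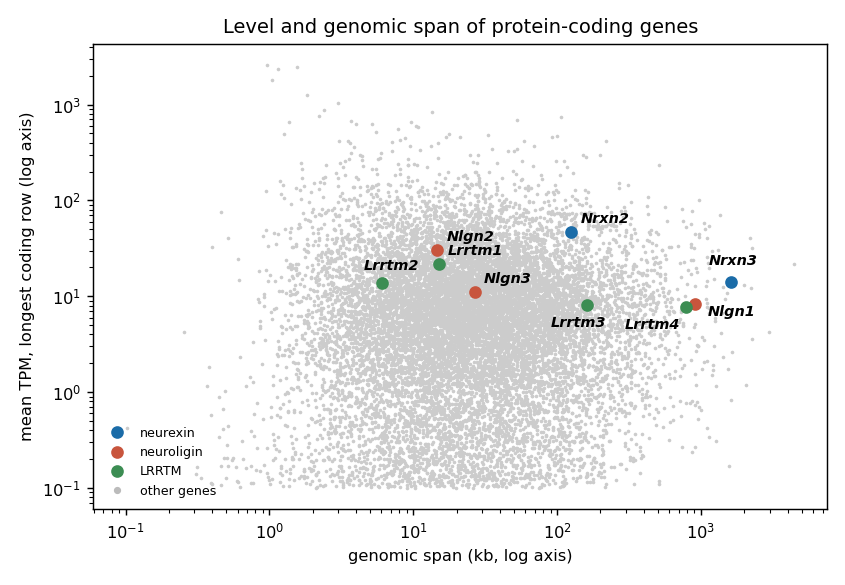
Mean level in TPM against genomic span in kb (both log axes) for protein-coding genes at 0.1 TPM or more (grey) and the 9 genes (coloured by family). The members over 500 kb, Nrxn3, Nlgn1 and Lrrtm4, sit at 14.2, 8.35 and 7.75 TPM at the right edge of the cloud, and Nrxn2 (125 kb, 46.7 TPM) is the highest.

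Scaffold proteins that bind the tails of these molecules inside the cell were well represented. On the presynaptic side 10 of 10 genes had at least 1 TPM and 9 at least 10 TPM, with a median log2(TPM + 1) of 4.79. Among the highest were Apba1 (50.1 ± 4.81 TPM, n = 3) and Lin7c (39.9 ± 2.48 TPM), adaptors of a complex with Cask. The lowest were Cask itself (14.5 ± 1.57 TPM), a kinase-like scaffold that binds neurexin tails, and Lin7a (9.14 ± 1.23 TPM). Postsynaptic scaffolds were present in 12 of 12 cases, 10 of them at 10 TPM or more, with a median of 4.40. Dlg4 (146.1 ± 2.37 TPM), the main scaffold of excitatory synapses, led with Dlg2 (69.9 ± 6.83 TPM) and Gphn (29.3 ± 2.59 TPM), the gephyrin scaffold of inhibitory synapses. Magi2 (9.31 ± 0.875 TPM) and Magi1 (8.62 ± 0.697 TPM) were lowest.

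Other extracellular ligands of the neurexins were more uneven. Of 20 genes, 18 had at least 1 TPM and 10 at least 10 TPM, with a median of 3.39. Clstn3 (55.1 ± 5.26 TPM), Adgrl1 (42.2 ± 5.90 TPM), a latrophilin, and Nxph1 (29.8 ± 5.31 TPM), a neurexophilin that binds alpha-neurexins, were highest. Nxph4 (0.172 ± 0.0563 TPM) and Cbln3 (0.171 ± 0.0202 TPM) were lowest. Of the other cerebellins, which bind neurexins carrying the segment printed above and were named after their values were seen, Cbln1 stood at 10.5 ± 1.22 TPM, Cbln2 at 3.56 ± 0.721 TPM and Cbln4 at 3.51 ± 0.320 TPM. Of 9 partners of neuroligins and LRRTMs, 8 had at least 1 TPM and 5 at least 10 TPM, with a median of 3.77. Sparcl1 (340.8 ± 40.1 TPM), a matrix protein also made by astrocytes, Adam10 (23.2 ± 1.56 TPM), a sheddase, and Gpc4 (13.9 ± 1.59 TPM), a glypican, were highest. Gpc3 (1.64 ± 0.0736 TPM) and Hspg2 (0.189 ± 0.0397 TPM) were lowest.

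Other families of synaptic organisers stood near the same levels. Of 15 LAR-type phosphatases and ligands, 14 had at least 1 TPM and 9 at least 10 TPM, with a median of 3.55, against 3.89 for the 9 genes. Ptprs (40.4 ± 2.48 TPM), Lrrc4b (31.9 ± 1.64 TPM) and Ptprd (31.6 ± 3.79 TPM) were highest, and Il1rap (1.90 ± 0.346 TPM) and Slitrk6 (0.0742 ± 0.0297 TPM) lowest. Among 18 other leucine-rich and SynCAM-type organisers, all 18 had at least 1 TPM and 11 at least 10 TPM, with a median of 3.70. The SynCAM genes Cadm3 (111.1 ± 5.47 TPM), Cadm1 (65.8 ± 5.57 TPM) and Cadm4 (62.9 ± 4.89 TPM) were highest. Flrt1 (2.04 ± 0.138 TPM) and Ntng1 (1.20 ± 0.0733 TPM) were lowest. A further SynCAM gene, Cadm2, named after its values were seen, stood at 41.7 ± 6.52 TPM, and at 84.5 TPM on its highest row.

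Of 5 regulators known to act on neurexin splicing, 4 had at least 1 TPM and 3 at least 10 TPM, with a median of 4.85. Khdrbs1, Khdrbs2 and Khdrbs3 code for STAR-family RNA-binding proteins that repress the segment of splice site 4, and Ptbp1 and Ptbp2 code for polypyrimidine-tract binding proteins. Khdrbs3 stood at 58.3 ± 3.14 TPM, Ptbp2, the neuronal form, at 44.7 ± 2.28 TPM, and Khdrbs1 at 27.9 ± 1.60 TPM (SD, n = 3). Ptbp1 stood at 5.52 ± 0.121 TPM. Khdrbs2 stood at 0.668 ± 0.124 TPM on its longest row and at 10.8 TPM on its highest row, so its level rests on the row chosen.

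**Figure D5:**
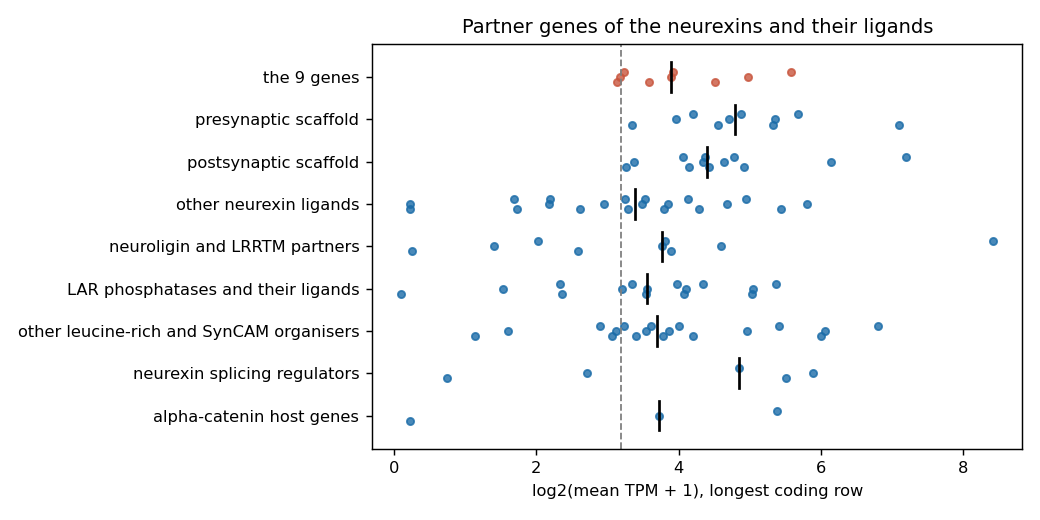
Points are genes, placed by log2(mean TPM + 1) of the longest coding row, for the 9 genes (red) and 8 lists of partner genes (blue), with a black bar at each median. The dashed line is the median of all protein-coding genes with at least 1 TPM (3.18), and the presynaptic scaffold (4.79) and the splicing regulators (4.85) have the highest medians.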

How the data were processed

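RNA-seq of 3 libraries of 1 group was analysed, from a table in which the authors deposited TPM for each transcript. Each library sums to 1000000. The submitters' processing notes name Trimmomatic, TopHat, Bowtie, HTSeq and mm10, with no version or order. The handling of strand and of multiply mapped reads is not stated there. The table is named for GENCODE release M4.

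Of 84660 rows, 82987 were placed by transcript identifier and position in GENCODE M21, and 1673 were not. A gene's value was the row of its longest protein-coding transcript. TPM times length was a whole multiple of 1 number per library, within 0.01, in 99.8% of at least 65365 rows whose ends are equal in both annotations, which gave reads. Where a row's ends differ by at most 1000 bases, its length was shifted to match. Read recovery was tested on simulated data of 74454 rows and returned 100% of the reads.

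The detection limit was 1 TPM and the pseudocount 1. Pairs of genes were compared within libraries by an exact two-sided sign-flip test. Named were the 9 genes and, of each partner list, the 3 highest and 2 lowest, all splicing regulators and alpha-catenins, and the highest and lowest gene of each marker list; 1 gene and 1 sequence that these rules would name are not reported here. The members, lists and rules were chosen with earlier results of these data known. Alternatives were other rows, summed rows, another scaling, pseudocount, detection limit or span, and leaving out each library. Words of 50 bases were compared among M21 transcripts. Python 3.11.15, numpy 2.4.6, pandas 2.3.3, scipy 1.17.1 and matplotlib 3.10.9 were used.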

Additional observations from a re-analysis of the deposited data

How the results depend on the processing

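The count of 9 genes at 1 TPM and the higher level of Nrxn2, Nlgn2 and Lrrtm1 within their families kept their direction under all alternatives run. Every exact sign-flip p stayed at or above 0.25, so none could pass a threshold. On the highest row of each gene, Nlgn1 less Nlgn3 was 0.62 and Lrrtm2 less Lrrtm3 was -0.041, both against the direction reported. The highest row of Lrrtm3 has no coding sequence. With all rows summed, which counts shared reads repeatedly, Nlgn1 less Nlgn3 was 0.28, Lrrtm2 less Lrrtm3 was -1.55, Lrrtm2 less Lrrtm4 was -2.37 and Lrrtm3 less Lrrtm4 was -0.82. On the row of the longest coding sequence, an alternative added after the data were seen, Lrrtm3 less Lrrtm4 was -0.45. Leaving out each library in turn gave -0.023 to 0.091 for that pair, with the negative value without library 3. The median log2 level of the 9 genes was 6.26 with summed rows and 6.07 when values were scaled to nuclear protein-coding genes. The correlation with span was -0.13 on the highest rows, 0.27 on summed rows, -0.12 with the span of the longest transcript, and -0.58 to -0.40 without 1 library, the former without library 2. At a detection limit of 5 TPM, 5 of the neuroligin and LRRTM partners were detected. The cause of the shifts other than those from summing and scaling was not tested. No paired analysis was possible because the series has 1 group, so no libraries can be paired across groups; pairs of genes were compared within libraries. In size, Nrxn2 less Nrxn3 was 1.67 on the longest rows and ranged from 1.52 without library 3 to 2.84 on the highest rows. Lrrtm3 less Ctnna3 was 2.95 on the longest rows and ranged from 2.92 without library 1 to 4.92 with a pseudocount of 0.1. It was 4.44 when scaled to nuclear protein-coding genes. Depth limits the low values, such as Ctnna3 at 25 to 33 reads a library.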
